A study of Mus musculus with 6 samples.

Results

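The Rnf genes are a naming family of mouse genes whose proteins carry a RING finger, the zinc-binding fold through which most ubiquitin ligases grip their partner enzyme. Members were taken by symbol (Rnf followed by a digit), leaving out Rnf2. Where a gene had several probe sets, the row was chosen by the highest mean over all 6 arrays. That gave 79 genes of the 19938 with a probe set of their own. There was a choice of row for 5 members, and the others had 1 row each. Rnf8, known for marking damaged chromatin, shares its row with another gene and is no member.

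The arrays measured RNA of fully-grown, germinal-vesicle-stage oocytes from 23-day-old female mice in a C57BL/6J;C3HeB/FeJ background. All females had received 5 IU of equine chorionic gonadotropin (eCG) for 46 hours from 21 days of age, and cumulus cells were stripped off before lysis. There were 3 samples from Marf1+/+ wild-type females and 3 from Marf1 mutant females, which carry a chemically induced (ENU) mutation on both copies. The design text speaks of individual samples without saying that each came from other animals. The p-values therefore reflect the scatter among these samples, which could be technical. How many oocytes or animals entered a sample was not given in the sources used here. In pooled oocytes, fewer cells with a transcript and less of it in each cell cannot be told apart.

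A RING ligase brings a ubiquitin-loaded conjugating enzyme to a substrate, and the ubiquitin marks the substrate for destruction by the proteasome or changes what it binds. Some members work alone, some as the RING subunit of a larger complex, and the RBR type (RING, in-between-RING, RING) takes the ubiquitin onto itself first. Oocytes store mRNAs during growth and are transcriptionally silent when fully grown, so meiotic resumption relies on stored transcripts and on regulated protein destruction. Marf1 encodes a ribonuclease-containing protein of oocytes that is needed for that resumption.

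The sequence just upstream of the start is shown for the 4 largest rises with a single RefSeq window (Rnf7, Rnf103, Rnf149 and Rnf169) and for Rnf213, the only fall, so that genes at both ends of the comparison that follows can be read beside each other. Each run is the 250 bases before the annotated start, 5′ to 3′ on the gene's strand, from RefSeq on GRCm38.p6. Capitals mark matches, on either strand, to the letters of the CCAAT box and to those of the GC box, spelled out after the sequences. The windows are chr9:96478676-96478925 (minus) for Rnf7, chr6:71493627-71493876 (plus) for Rnf103, chr1:39577348-39577597 (minus) for Rnf149, chr7:99980459-99980708 (minus) for Rnf169 and chr11:119389849-119390098 (plus) for Rnf213.

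Rnf7: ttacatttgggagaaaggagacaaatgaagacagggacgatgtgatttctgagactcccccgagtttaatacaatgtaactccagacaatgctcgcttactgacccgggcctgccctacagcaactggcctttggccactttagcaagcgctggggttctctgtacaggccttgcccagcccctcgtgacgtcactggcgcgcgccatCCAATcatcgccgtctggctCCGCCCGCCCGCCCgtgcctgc

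Rnf103: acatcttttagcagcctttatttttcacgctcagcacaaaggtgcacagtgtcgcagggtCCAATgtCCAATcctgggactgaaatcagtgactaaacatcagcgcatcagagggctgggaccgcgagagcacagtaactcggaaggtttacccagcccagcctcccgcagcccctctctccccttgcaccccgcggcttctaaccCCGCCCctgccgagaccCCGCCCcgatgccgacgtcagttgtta

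Rnf149: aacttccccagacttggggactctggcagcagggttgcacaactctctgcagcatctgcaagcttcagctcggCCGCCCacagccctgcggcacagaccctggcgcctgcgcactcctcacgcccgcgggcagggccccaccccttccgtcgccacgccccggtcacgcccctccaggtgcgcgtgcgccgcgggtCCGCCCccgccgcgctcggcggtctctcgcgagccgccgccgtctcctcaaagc

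Rnf169: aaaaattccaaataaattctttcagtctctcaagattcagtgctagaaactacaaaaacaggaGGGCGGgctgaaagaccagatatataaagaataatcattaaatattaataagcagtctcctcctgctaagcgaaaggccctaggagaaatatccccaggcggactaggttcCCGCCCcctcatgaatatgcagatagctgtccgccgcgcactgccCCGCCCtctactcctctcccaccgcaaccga

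Rnf213: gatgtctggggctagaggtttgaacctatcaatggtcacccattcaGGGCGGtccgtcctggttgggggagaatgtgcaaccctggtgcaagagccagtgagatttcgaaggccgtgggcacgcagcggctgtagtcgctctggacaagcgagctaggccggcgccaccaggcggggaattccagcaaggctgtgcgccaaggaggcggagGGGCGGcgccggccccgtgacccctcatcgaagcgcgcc

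All 5 windows held the GC box, here the letters GGGCGG on either strand, with 3 matches in Rnf7 and Rnf169 and 2 in each of the others. The 3 in Rnf7 overlap one another and form 1 run of capitals. The CCAAT box, searched as those 5 letters on either strand, was found in the windows of Rnf7 (1 match) and Rnf103 (2 matches) and not in the other 3. Guanine and cytosine made up 47.2% of the window of Rnf169 and 73.2% of that of Rnf149. RefSeq windows were matched for 63 of the 79 members, 81 windows in all, since some genes have several starts. Windows were matched for 8 of the 12 members higher in the mutant, and not for Rnf11, Rnf139, Rnf19a and Rnf227. Of the windows of higher members, 7 of 10 held the GC box, against 36 of 70 windows of members not past the threshold and 32.7% of all 32851 windows. The CCAAT box was in 5 of 10, 22 of 70 and 33.8% of these windows. The letters TATAAA, which form the TATA box, were in 1 of 10, 8 of 70 and 12.4%. The E-box, searched as CANNTG, was in 8 of 10, 48 of 70 and 66.2%. The element of the oocyte factor Nobox, searched as TAATTG, was in 0 of 10, 2 of 70 and 7.17%. The median number of CG dinucleotides was 15.5 in the windows of higher members, 15 in those of members not past the threshold and 6 over all windows. Rnf6 has 3 windows, of which a pair overlap, and matches are letters in a window, not tested sites.

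Marf1 itself, the check of the labels, had log2 levels of 9.21, 9.16 and 9.31 on the wild-type arrays (replicate 1, 2, 3) and 5.98, 6.40 and 6.16 on the mutant arrays, a log2 fold change of -3.05 with SE 0.15 (limma adjusted p = 1.0e-04). All later values by array follow this order. Where its probes lie relative to the mutation was not given in the sources used here. Mutant replicate 3 stood apart. It correlated with the other mutant arrays at 0.9725 and 0.9696, while those correlated with each other at 0.9855 and the wild-type arrays among themselves at 0.9838 to 0.9855, and the SD over its probe sets was 2.04, below the 2.14 to 2.20 of the others. The 14 oocyte markers had mean levels of 10.10 to 10.26 on the wild-type arrays and 9.85 to 10.17 on the mutant arrays, with Kit lower in the mutant (-1.28) and the other 13 not past the threshold. The 15 cumulus and granulosa markers measured, of 17 listed, had array means of 4.90 to 5.05 (wild type) and 4.93 to 5.17 (mutant). Amh, Fshr, Slc38a3 and Star were below the receptor-gene level in both genotypes. Kitl (1.94) and Nr5a2 (1.46) were higher, and Ptgs2 was lower (mean 5.14 in wild type, 4.14 in mutant). Nr5a2 stood far above the mean of its list, at 8.71 in wild type and 10.17 in the mutant. The 8 theca and stroma markers had array means of 4.08 to 4.21 and 4.07 to 4.41, with Pdgfra (0.67) higher. The 6 blood, immune and endothelial markers had array means of 4.40 to 4.68 and 4.48 to 4.52. Pecam1 (-1.07), also far above the mean of its list, was lower, with 7.27 in wild type and 6.20 in the mutant. The part of these markers in the results was not tested. The receptor-gene level is the 95th percentile of the mean of 1194 olfactory and vomeronasal receptor genes, 4.53 on the log2 scale, used as a description of a dim signal.

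In the mutant 12 Rnf genes were higher, 9 of them by at least 2-fold, and 1 was lower, by limma with the Benjamini-Hochberg adjustment over all 35556 rows and an adjusted p under 0.05. The rises were those of Rnf7, Rnf11, Rnf103, Rnf149, Rnf169, Rnf182, Rnf217, Rnf6, Rnf227, Rnf139, Rnf121 and Rnf19a, and the fall was that of Rnf213. That is 16.5% of the members, where 10.4% of all genes passed. By direction, 15.2% of members were higher, against 6.4% of all genes, and 1.27% were lower, against 4.04%. Among genes above the receptor-gene level in at least 1 genotype, 12 of 67 members were higher and 1 lower, where 9.9% of all such genes were higher and 6.23% lower. The median log2 fold change was 0.01 over the members and -0.04 over all genes. The same all-gene shares stand behind each count by role. These counts describe a family picked out with results of this comparison known, and no test was made of the family as a group. Of all genes called, 61.3% were higher, and 74.6% after cyclic loess normalization, which left 16 Rnf genes higher and 1 lower.

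**Figure D1:**
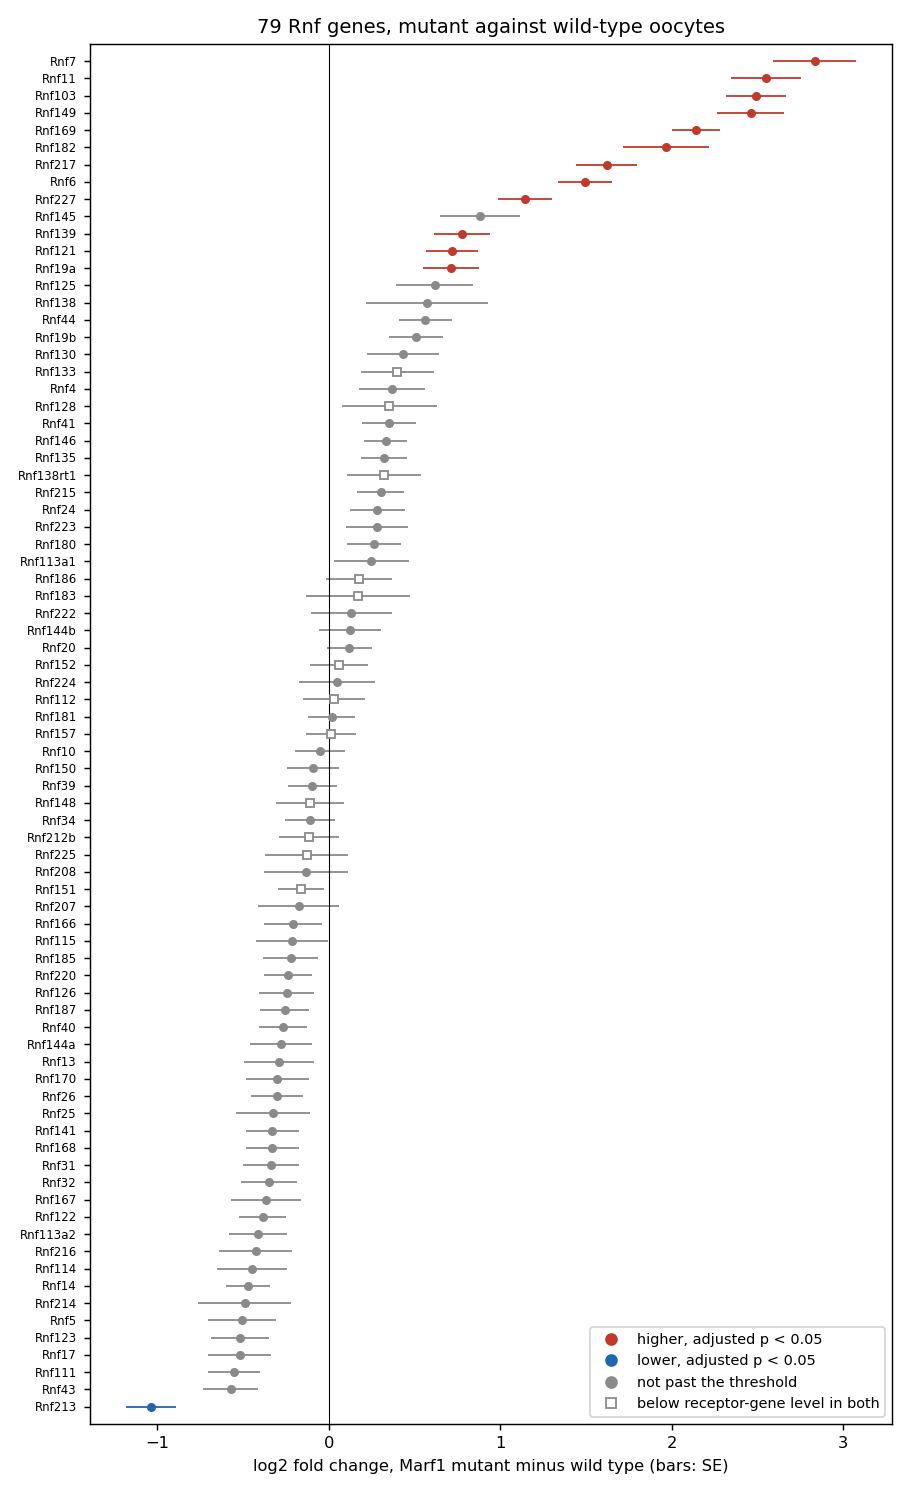
Log2 fold change, mutant minus wild type, of all 79 Rnf genes with its standard error, ordered by size. The 12 genes past the threshold upward reach from 0.71 to 2.83, Rnf213 stands alone at -1.04, and the 66 grey genes lie between -0.57 and 0.88.

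The largest rise was that of Rnf7 (probe set 10595803), also called Rbx2 or Sag, the RING subunit that pairs with the cullin Cul5 in cullin-RING ligases. It read 8.23, 8.62 and 7.95 in wild type and 11.44, 11.15 and 10.71 in the mutant, so the lowest mutant array was above the highest wild-type array by more than the spread within either genotype. The means were 8.27 ± 0.34 and 11.10 ± 0.37 (log2, mean ± SD, n = 3 each), a change of 2.83 on the log2 scale (SE 0.24, 7.13-fold higher, limma adjusted p = 5.48e-04). Its partners were looked at after its value was seen. Cul5 had a change of -0.12 on the log2 scale (SE 0.16, adjusted p = 0.775). Rbx1, the related RING subunit of the other cullins, had -0.11 (SE 0.14, adjusted p = 0.770).

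Rnf11 (probe set 10515072), a small RING protein that works with the deubiquitinase A20 in restraining inflammatory signalling, followed. Its values were 5.35, 5.96 and 5.64 in wild type and 8.47, 8.11 and 8.02 in the mutant. The change was 2.55 on the log2 scale (SE 0.20, 5.86-fold higher, limma adjusted p = 4.22e-04), and the genotypes did not overlap. Rnf6 (probe set 10535725), a nuclear relative of the X-linked ligase Rlim, read 6.45, 6.53 and 6.68 in wild type against 8.23, 8.09 and 7.82, a change of 1.49 on the log2 scale (SE 0.16, adjusted p = 0.00148). Rnf227 (probe set 10377534) read 6.80, 7.17 and 6.91 against 8.12, 8.24 and 7.95, a change of 1.14 on the log2 scale (SE 0.16, adjusted p = 0.00481). In both, every mutant array was above every wild-type array.

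Of the 14 ligases listed as sitting in membranes of the endoplasmic reticulum, mitochondria or related compartments, 4 were higher and 0 lower. Over all genes 6.4% were higher and 4.04% lower. At an unadjusted p under 0.05 in limma, 5 of the list were higher and 2 lower, where 11% and 13.5% of all genes were. Rnf103 (probe set 10539002), a ligase of the endoplasmic reticulum, had 5.30, 5.52 and 4.93 in wild type and 7.73, 7.71 and 7.79 in the mutant. Its mutant arrays agreed to within 0.08, and the change was 2.49 (log2, SE 0.18, 5.63-fold higher, adjusted p = 2.64e-04). Rnf182 (probe set 10404836) had the widest wild-type spread of the genes past the threshold, with 6.79, 6.53 and 5.87 against 8.16, 8.57 and 8.36 (log2 fold change 1.97, SE 0.25, adjusted p = 0.00309). Rnf139, also called Trc8, is a sterol-regulated ligase of the endoplasmic reticulum. It read 7.59, 7.40 and 7.66 against 8.54, 8.33 and 8.11 (0.78, SE 0.16, adjusted p = 0.0278). Rnf121 read 7.67, 7.93 and 7.84 against 8.57, 8.68 and 8.34 (0.72, SE 0.15, adjusted p = 0.0300). The changes of Rnf139 and Rnf121 were smaller, and their calls were lost when any array other than mutant replicate 3 was left out (adjusted p up to 0.0994 and 0.120).

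Rnf145, a relative of Rnf139 that acts on sterol metabolism, missed the threshold with a change of 0.88 (SE 0.23, adjusted p = 0.0667). Its mutant values were 8.11, 7.74 and 7.18 against 6.90, 6.73 and 6.76 in wild type, so replicate 3 was the mutant array nearest to wild type. The other 9 members of the membrane list, including Rnf5 and Rnf185, which act in destruction of misfolded membrane proteins, and Rnf170, which acts on the inositol trisphosphate receptor, did not pass. Rnf5 had -0.51 (SE 0.20, adjusted p = 0.203), the lowest of them. Rnf186, Rnf183 and Rnf152 were below the receptor-gene level in both genotypes, and Rnf122, Rnf180 and Rnf26 completed the list.

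The PA-TM-RING ligases, single-pass membrane proteins with a luminal protease-associated domain, numbered 9, and Rnf149 alone passed. Rnf149 (probe set 10354191) read 4.59, 4.81 and 4.97 in wild type, just above the receptor-gene level, and 7.02, 7.61 and 7.12 in the mutant. Its log2 change was 2.46 (SE 0.20, 5.50-fold higher, limma adjusted p = 4.25e-04). Rnf43, which removes Wnt receptors from the cell surface, had the lowest log2 fold change among the members that did not pass, -0.57 (SE 0.16, adjusted p = 0.0817), with 5.13, 4.81 and 4.98 against 4.29, 4.63 and 4.28. Its mutant mean was below the receptor-gene level. Rnf130 had 0.43 (SE 0.21, adjusted p = 0.315), and Rnf13, Rnf128, Rnf133, Rnf148, Rnf150 and Rnf167 lay between -0.37 and 0.40 without passing.

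**Figure D2:**
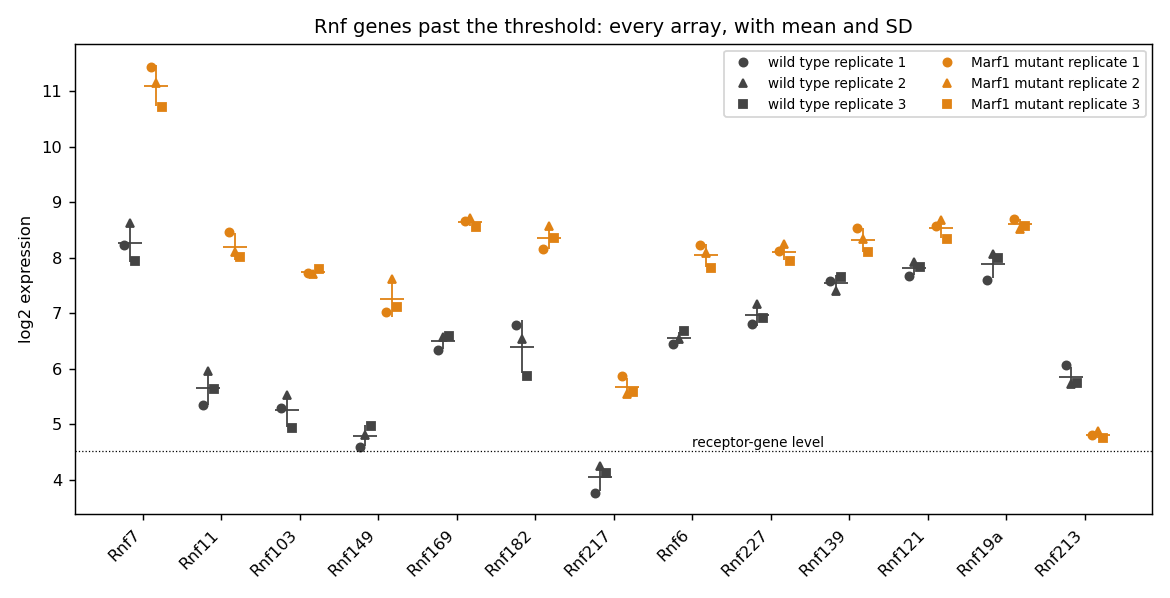
Log2 expression of the 13 Rnf genes past the threshold on every array, with mean (horizontal bar) and SD (vertical bar) of each genotype, n = 3, and the receptor-gene level as a dotted line. In all 13 genes the arrays of the genotypes do not overlap, and the wild-type arrays of Rnf217 lie below the dotted line.

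Of 8 members with roles at chromatin or in DNA repair, Rnf169 was higher and 0 were lower. Without the adjustment (limma p below 0.05) these counts became 2 and 1, beside all-gene shares of 11% and 13.5%. Rnf169 (probe set 10565852) binds ubiquitin-marked histones at DNA breaks and competes there with repair factors that read the same mark. It read 6.34, 6.58 and 6.59 in wild type and 8.67, 8.71 and 8.56 in the mutant, a change of 2.14 on the log2 scale (SE 0.14, 4.42-fold higher, adjusted p = 2.10e-04). Rnf168 (probe set 10435024), its relative that writes that mark, read 9.87, 9.97 and 10.10 in wild type and 9.66, 9.45 and 9.84 in the mutant. Here the mutant arrays lay below the wild-type arrays, but the change of -0.33 (SE 0.15) did not pass (adjusted p = 0.298). The Rnf169 level minus the Rnf168 level ran from -3.53 to -3.39 on wild-type arrays and from -1.28 to -0.74 on mutant arrays. An exact permutation test, two-sided, gave p = 0.1, the smallest that 3 against 3 arrays can give. The pair was listed after the values were seen, so this p lends no support of its own.

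Rnf20 and Rnf40, which together attach ubiquitin to histone H2B, had log2 fold changes of 0.12 (SE 0.13, adjusted p = 0.733) and -0.27 (SE 0.14, adjusted p = 0.354). Rnf4, a ligase that recognises SUMO chains, read 10.64, 10.14 and 10.46 in wild type and 10.97, 10.88 and 10.49 in the mutant, overlapping ranges with a change of 0.37 (SE 0.19, adjusted p = 0.366). Rnf111, also called Arkadia, which removes inhibitors of TGF-beta signalling, read 7.69, 7.65 and 7.63 against 7.15, 7.29 and 6.87. All its mutant arrays were lower, with a change of -0.55 (SE 0.15, adjusted p = 0.0745). Rnf146, which recognises poly-ADP-ribose, had 0.33 (SE 0.13, adjusted p = 0.184) in the row used, and -0.32 (SE 0.29, adjusted p = 0.654) in its other row. Rnf138, of this list and of the Rnf114 family, had the highest standard error of the members. Its mutant arrays read 7.40, 7.57 and 6.14 against 6.61, 6.31 and 6.47 in wild type (0.57, SE 0.35, adjusted p = 0.461), and replicate 3 was below all wild-type arrays.

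Among the 8 RBR ligases 2 were higher and 0 lower, beside 6.4% and 4.04% of all genes. Without the adjustment (limma p below 0.05) the RBR counts became 3 and 1, beside all-gene shares of 11% and 13.5%. Rnf217 (probe set 10368577) read 3.76, 4.25 and 4.12 in wild type, below the receptor-gene level, and 5.86, 5.55 and 5.58 in the mutant. Its log2 fold change of 1.62 (SE 0.18, adjusted p = 0.00169) may therefore be a lower bound. Rnf19a, also called Dorfin, read between 7.60 and 8.06 in wild type and 8.70, 8.52 and 8.58 in the mutant, without overlap (0.71, SE 0.17, adjusted p = 0.0411). That call was lost whichever array was left out (adjusted p 0.0668 to 0.128). Its relative Rnf19b had 0.51 (SE 0.16, adjusted p = 0.112), with all mutant arrays above wild type. Rnf14, which read 9.47, 9.58 and 9.45 in wild type and 9.09, 8.95 and 9.04 in the mutant, had -0.47 (SE 0.13, adjusted p = 0.0729). Rnf31, the catalytic subunit of the complex that builds linear ubiquitin chains, had -0.34 (SE 0.16, adjusted p = 0.313). Rnf144a, Rnf144b and Rnf216 did not pass either.

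Rnf213 (probe set 10383214), a giant ATPase with ligase activity known as a susceptibility gene for moyamoya vessel disease, was the only member lower in the mutant. It read 6.06, 5.73 and 5.75 in wild type and 4.80, 4.87 and 4.76 in the mutant, a change of -1.04 on the log2 scale (SE 0.15, 2.05-fold lower, adjusted p = 0.00537). A second row of the gene read 5.41, 5.27 and 5.27 against 4.52, 4.80 and 5.11, also without overlap, and had -0.51 (SE 0.18, adjusted p = 0.152). Of the 11 members listed for cytosolic quality control and signalling, 1 was higher and 3 lower at an unadjusted p under 0.05 in limma. Over all genes 11% were higher and 13.5% lower at that p. Rnf11 and Rnf213 were those of the list that passed after adjustment. The other 9 ran from -0.52 for Rnf123 (SE 0.17, adjusted p = 0.125) to 0.35 for Rnf41. Rnf34, Rnf10, Rnf25 and the paired ligases Rnf115 and Rnf126 lay between, as did the related copies Rnf113a1 and Rnf113a2. Rnf113a1 had means of 5.61 in wild type and 5.86 in the mutant (0.25), and Rnf113a2 8.72 and 8.31 (-0.41). Whether the probes of these copies share signal was not tested. Rnf34 read 9.98, 9.98 and 10.22 in wild type and 10.08, 9.89 and 9.88 in the mutant (-0.11, SE 0.14, adjusted p = 0.781).

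Of the 6 members known from germ cells or meiosis, 0 passed in either direction (0 higher and 1 lower at an unadjusted p under 0.05 in limma). That gene was Rnf17, a Tudor-domain protein of the germline, with 8.35, 8.31 and 8.16 in wild type and 7.80, 8.04 and 7.42 in the mutant. Every mutant array was lower, with a change of -0.52 (SE 0.18, adjusted p = 0.156). Rnf141, first described in testis, had -0.33 (SE 0.15, adjusted p = 0.293) and nearly the same value, -0.31 (SE 0.16), in its other row. Rnf133, Rnf148, Rnf151 and Rnf212b were below the receptor-gene level in both genotypes. Of the 4 members of the Rnf114 family 0 passed. At an unadjusted p under 0.05 in limma, 1 was higher (Rnf125) and 0 lower, where 11% and 13.5% of all genes were. Rnf114, which early embryos need to progress past the maternal stage, read 9.04, 8.91 and 9.45 against 8.83, 8.85 and 8.38 (-0.45, SE 0.20, adjusted p = 0.281). Rnf125 had 0.62 (SE 0.23, adjusted p = 0.172) and Rnf166 -0.21.

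The 22 members in none of these role lists included Rnf7, Rnf6 and Rnf227, and the other 19 ran from -0.49 for Rnf214 to 0.56 for Rnf44 without passing. Rnf44 came nearest, with 6.05, 6.14 and 6.14 in wild type and 6.91, 6.63 and 6.48 in the mutant (SE 0.15, adjusted p = 0.0734). Rnf181 read 9.02, 8.85 and 9.05 against 8.90, 9.09 and 8.98, a change of 0.02 (SE 0.14). Rnf112, Rnf138rt1, Rnf157 and Rnf225 were below the receptor-gene level in both genotypes. Rnf24, Rnf32, Rnf39, Rnf135, Rnf187, Rnf207, Rnf208, Rnf215, Rnf220, Rnf222, Rnf223 and Rnf224 make up the rest. Over all members 12 were below that level in both genotypes, and 0 of these passed.

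**Figure D3:**
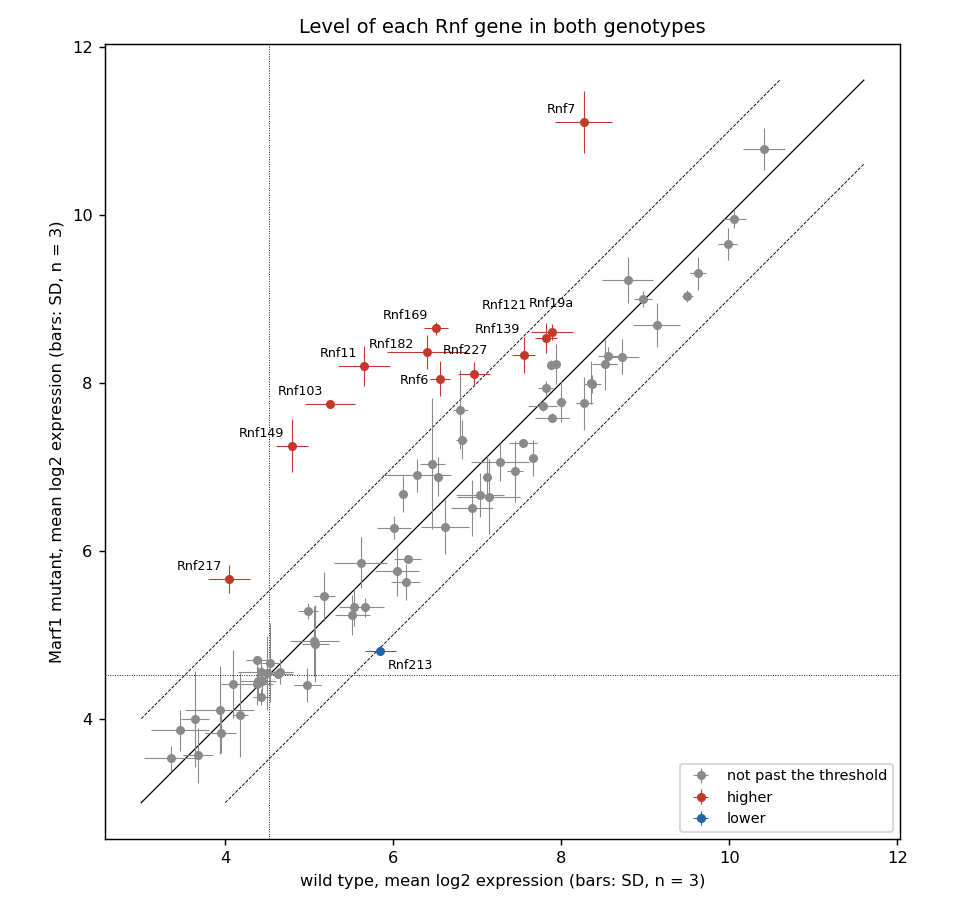
Mean log2 expression of the 79 Rnf genes in wild type (x) and mutant (y) with SD bars, n = 3 each; the solid line marks equal levels, dashed lines a 2-fold change and dotted lines the receptor-gene level. The 9 rises of at least 2-fold start from wild-type means between 4.04 and 8.27, while Rnf4, Rnf34 and Rnf168, at the right end, stay near the line of equal levels.

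All 3 mutant values lay above all 3 wild-type values in 21 members, or 26.6%, where 12.9% of all genes did, and below in 17, or 21.5%, where 17.7% did. Of the 25 such members that missed the threshold, 9 were above and 16 below. A lean below among the misses was shared by all genes. There 2576 lay above with 1276 called higher, and 3537 lay below with only 806 called lower. Those below included Rnf43, Rnf111, Rnf17, Rnf123, Rnf5, Rnf14, Rnf114 and Rnf168, each with a change between -0.57 and -0.33. At an unadjusted p under 0.05 in limma, 18 members were higher, where 11% of all genes were, and 9 lower, where 13.5% were. The 66 members that did not pass had a median log2 fold change of -0.11, with 25% of them below -0.32 and 25% above 0.26.

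With mutant replicate 3 left out, 15 members were higher, where 7.14% of all genes were, and 1 was lower, where 3.09% were. In that fit Rnf138, Rnf145, Rnf19b and Rnf44 passed upward and Rnf19a did not. Leaving out any other array gave 9 higher members and 1 lower. In those fits 825 to 898 of the 19938 genes were higher and 199 to 377 lower, against 1276 and 806 with all arrays. Replicate 3 was the mutant array nearest the wild-type mean in 7 of the 13 members past the threshold, and in 1033 of the 2082 genes past it. The median SD of a member was 0.17 within wild type and 0.22 within the mutant.

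**Figure D4:**
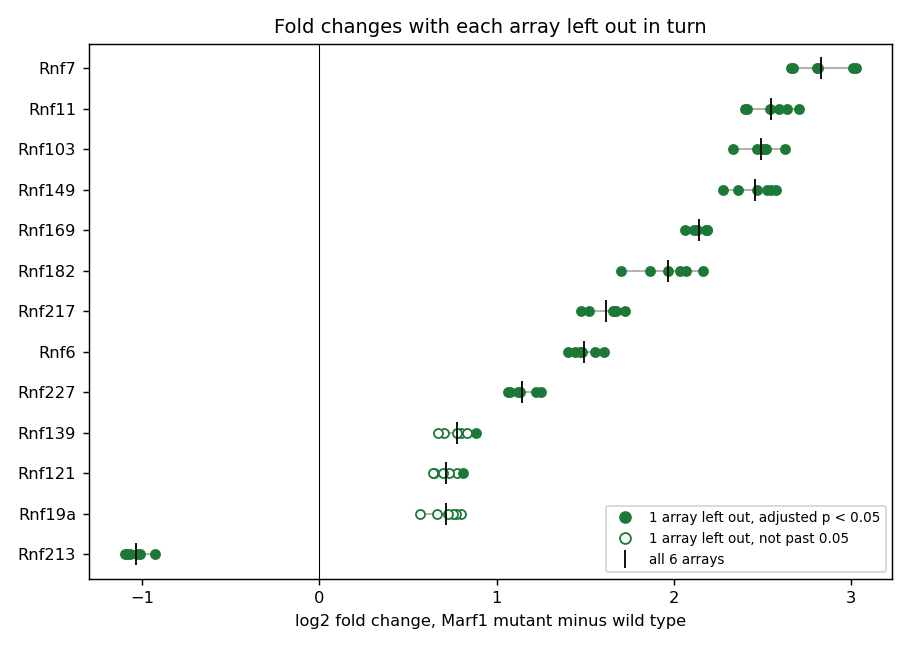
Log2 fold change of the 13 Rnf genes past the threshold with all 6 arrays (black tick) and with each array left out in turn (circles, filled where the adjusted p stayed under 0.05). The 9 largest rises and Rnf213 stay filled throughout, Rnf139 and Rnf121 are filled once each, and Rnf19a never is.

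Related genes were set side by side in 10 pairs, which were listed after the values were seen. The level of the first minus that of the second was compared between genotypes by an exact permutation test, two-sided, where 0.1 is the smallest p and no pair can pass. The pairs at the smallest exact p of 0.1 (0.2 after adjustment over the 10 pairs) were Rnf169 with Rnf168, Rnf7 with Rbx1, Rnf6 with Rlim, Rnf20 with Rnf40 and Rnf5 with Rnf185. Between Rnf6 and Rlim the change differed by 1.41, with Rlim itself at 0.08 (SE 0.15, adjusted p = 0.853), and between Rnf7 and Rbx1 by 2.95. Rnf139 and Rnf145, both of sterol metabolism, changed by 0.78 and 0.88, a difference of -0.10 (exact p = 0.6). Rnf19a and Rnf19b differed by 0.21 (exact p = 0.4). Rnf115 and Rnf126 differed by 0.03 (exact p = 0.9) and Rnf13 and Rnf167 by 0.08 (exact p = 0.5), and in these 2 pairs neither gene passed the threshold. Rnf144a and Rnf144b differed by -0.40 (exact p = 0.2).

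**Figure D5:**
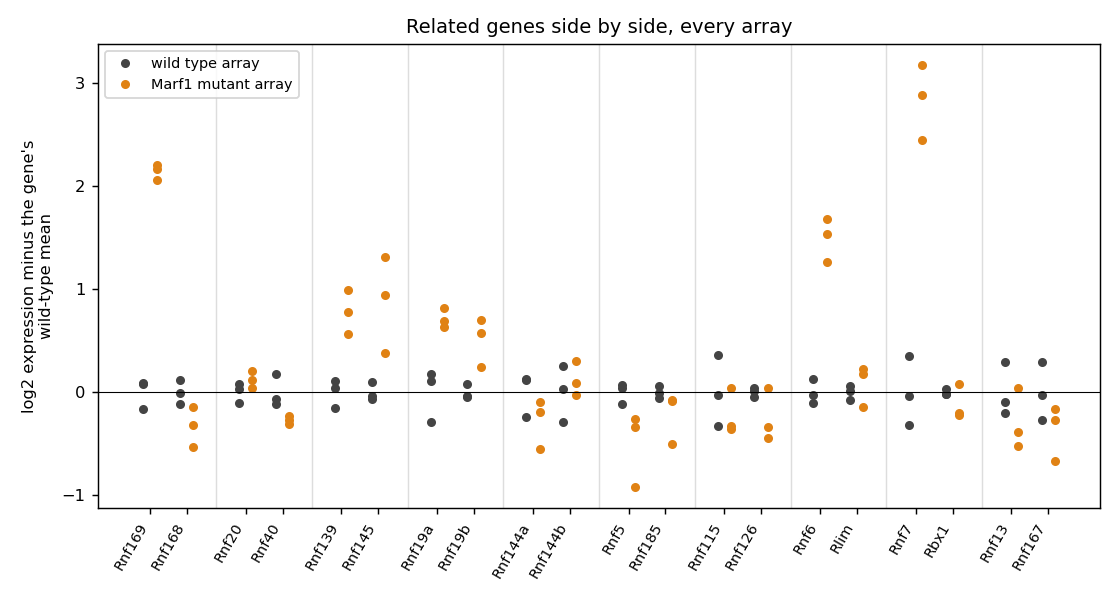
Log2 expression on each array minus the gene's own wild-type mean, for 10 pairs of related genes. The mutant arrays of Rnf169, Rnf6 and Rnf7 stand above 1, while those of their partners Rnf168, Rlim and Rbx1 lie between -0.53 and 0.22.

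Other genes of the pathway were taken from lists of ubiquitin and activating enzymes, RBR and linear-chain partners, RING ligases under other names, partners at histone H2B and DNA breaks, and partners in ADP-ribose, Wnt receptor and membrane quality control work. Of the 67 listed, 59 had a row of their own, and 9 were higher and 2 lower, with a median log2 fold change of -0.10. Over all genes 6.4% were higher and 4.04% lower, with a median of -0.04. Otulin, which cuts the linear chains that Rnf31 builds, read 6.94, 6.68 and 7.01 in wild type and 8.91, 8.82 and 8.63 in the mutant (1.91, SE 0.15, limma adjusted p = 4.46e-04). Tnks2, a tankyrase whose ADP-ribose marks Rnf146 reads, read 7.72, 7.88 and 7.70 against 9.66, 9.40 and 9.46 (1.74, SE 0.14, adjusted p = 4.48e-04). Znrf3, which acts with Rnf43 on Wnt receptors, read 5.41, 5.65 and 6.13 against 7.74, 7.36 and 7.24 (1.72, SE 0.22, adjusted p = 0.00364). In these 3 genes no mutant array overlapped wild type.

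Wac, an adaptor of Rnf20 and Rnf40, was higher by 1.42 (SE 0.18, adjusted p = 0.00344), and Cdc73, of the elongation complex that recruits them, by 0.78 (SE 0.16, adjusted p = 0.0282). The activating enzyme Uba6 was higher by 1.06 (SE 0.23, adjusted p = 0.0341), the only measured gene of 6 in its list. Cbl was higher by 0.96 and the Polycomb ligase Ring1 by 0.74, with adjusted p of 0.0231 and 0.0443. The remaining calls, named after their values were seen, were Znrf1 (0.73), Tnks (-0.67) and Brcc3 (-0.64). The partner calls depended on the arrays. Without mutant replicate 3, 13 were higher and 0 lower (5 lower at an unadjusted p under 0.05 in limma). Without any other single array, 4 or 5 were higher and 0 lower (4 to 8 lower at an unadjusted p under 0.05). The genes called in those fits also fell in number, to between 1024 and 1265 of all genes, against 2082 with all arrays and 2040 without mutant replicate 3. Otulin, Tnks2, Znrf3 and Wac passed in every such fit.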

How the data were processed

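The authors deposited 1 table of log2 expression values, 35556 rows (probe sets) by 6 arrays, made with GCOS, Affymetrix Expression Console 1.1 and RMA, per the submitters' processing notes. RMA normalizes the arrays to one another, so each difference is relative to other probe sets; the deposited arrays still had medians of 4.56 to 4.76 and SDs of 2.04 to 2.20. The array's genome build was not given in the sources used here. RNA was amplified by a whole-transcript method, per the labels' protocols. The number of arrays limits the precision.

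Rows were named from the platform annotation, and none was named from a row with several genes. All 79 members matched RefSeq (GRCm38.p6) by Entrez ID. The main test was limma's (version 3.58.1, R 4.3.3; default lmFit, eBayes, prior degrees of freedom 3.65), two-sided, on the deposited values, adjusted over all rows. The procedure was tried on simulated arrays with independent noise in each row. Those held no array standing apart as mutant replicate 3 did, so they do not vouch for the calls here. The members and lists were chosen with earlier results of these data known. Named genes were all members past the threshold, the 5 with the highest wild-type mean (Rnf4, Rnf34, Rnf168, Rnf141 and Rnf14), 12 listed for their role, of which Rnf8 and Rnf212 had no row of their own, and the 8 partner genes past the threshold with the largest change. Others were named after their values were seen. Role lists overlap in Rnf138, Rnf133 and Rnf148. Alternatives were other normalizations, filters, row choices, a variance trend, a replicate block and each array left out.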

Additional observations from a re-analysis of the deposited data

How the results depend on the processing

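The number of Rnf genes higher in the mutant stayed within 1.5 times of 12 under all 15 alternatives (9 to 16), and the 10 calls other than Rnf139, Rnf121 and Rnf19a were kept in all of them. Those 3 were lost after median centring. Over the 15 alternatives 825 to 1708 of all genes were higher, against 1276 in the main fit. The number of Rnf genes lower was 1, where 806 of all genes were lower. It was 2 after quantile normalization (with Rnf111) and with an intensity trend (with Rnf14), where 1073 and 858 of all genes were. It was 4 with only rows above the median level (61 members measured) or with 1 row per gene (with Rnf14, Rnf43 and Rnf111). There 1278 and 1514 of all genes were lower. Both fits used fewer rows, so limma's variance estimates were made anew along with the adjustment. With an array left out the number of Rnf genes lower was 1 throughout (1 to 1), where 199 to 617 of all genes were. Partner genes higher numbered 5 after median centring, and 4 to 13 with an array left out. Partner genes lower numbered 0 after median centring and cyclic loess (7 and 6 at an unadjusted p under 0.05 in limma), 5 with 1 row per gene, and 0 to 0 with an array left out. Rnf34, not past the threshold, turned to 0.0144 after cyclic loess. Over all genes 2082 passed, 3222 with 1 row per gene, and 1024 to 2040 with an array left out. The causes of these differences, the number of rows or arrays among them, were not tested.

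The replicate numbers of the titles are shared by the genotypes, but deviations of same-numbered arrays correlated at 0.147, -0.0992 and 0.0267, so they are taken to share only a number. With the number as a replicate block, 9 Rnf genes were higher and 1 lower. Partner genes were 5 higher and 0 lower (8 lower at an unadjusted p under 0.05 in limma). Over all genes 1431 passed, 1048 higher and 383 lower. Of the 6 arrays, wild-type replicates 1 and 3 and mutant replicate 1 correlated best with their own number.

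Members near the receptor-gene level have no measure of background.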

Other observations

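Some rows outside the comparison also name Rnf genes. The row shared by Rnf8 and Gm28043 read 9.43, 9.54 and 9.44 in wild type and 9.91, 9.67 and 10.04 in the mutant, a change of 0.40 on the log2 scale (SE 0.15, limma adjusted p = 0.171). All its mutant arrays were above wild type, and it did not pass. The pair of rows shared by Rnf7 and Gm35144 lay near the receptor-gene level, at 4.00 to 4.38 in wild type and 4.45 to 4.61 in the mutant. Their log2 fold changes of 0.41 and 0.36 (SE 0.14 each) did not pass, against 2.83 in the row that names Rnf7 alone. Which of the genes these rows read was not tested.

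The 5 members with a second row were Rnf146, Rnf213, Rnf141, Rnf170 and Rnf26. The rows of Rnf26 read 7.94, 7.66 and 8.06 and 4.92, 4.68 and 5.38 in wild type, and their log2 fold changes were -0.30 and -0.10, neither past the threshold. The rows of Rnf170 had -0.30 and -0.16, and neither passed.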
